A study of Homo sapiens with 8 samples.

Results

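A549 is a human lung adenocarcinoma cell line, and it was set against the lung cancer lines H460, H1650 and H1975. The study sorted each line into a side population (SP), the cells that pump out the dye Hoechst through transporters such as ABCG2, and a main population (MP), the cells that keep the dye. The 2 arrays labelled A549 SP and A549 MP were compared with the 6 arrays of the other 3 lines, out of 8 arrays in all, with 1 array for each population of a line. Arrays were chosen by the cell line in the labels, and no expression value was used for that choice. By the study's description, K-Ras is mutated in A549 and H460, and EGFR in the other 2 lines, H1650 and H1975. All cells were untreated apart from the dye and a viability stain before sorting. The question was which genes set A549 apart in both of its populations, that is, the identity of the line and not the difference between SP and MP. Each line stands for 1 tumour, nothing in the labels says that SP and MP came from separate cultures, and p-values in the fit of line and population therefore measure only the spread between sorted fractions of a line.

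A549 is widely used as a model of the alveolar type II cell, the lung cell that makes surfactant, although cultured A549 cells keep little of that programme. The line is known to carry mutations of KEAP1, the adaptor that marks the transcription factor NRF2 for degradation, and of SMARCA4, the ATPase of the SWI/SNF chromatin remodelling complex. H460 is also known as a KEAP1 mutant line. NRF2 drives genes for glutathione synthesis, detoxifying reductases and drug efflux. The FOXA factors and several nuclear receptors drive genes of gut, liver and airway secretory cells.

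Values are log2 signals of Affymetrix arrays, and each gene was read from its brightest probe set. A gene was tested when at least 1 of the 4 line means reached 7 on the log2 scale, which kept 12478 of 19775 genes. Array medians ran from 5.92 to 6.29. Over the genes tested, A549 SP correlated with A549 MP at r = 0.973, and the A549 arrays correlated with those of H460 at 0.781 to 0.789, of H1650 at 0.719 to 0.727 and of H1975 at 0.702 to 0.712. These values describe arrays that share a platform and a scaling. The log2 ratio of the 5′ over the 3′ probe set of ACTB, a sign of RNA integrity, was -0.52 and -0.56 in A549 and -0.65 to -0.23 in the other arrays. Markers of cells that a culture should lack gave 0 calls by limma among 4 tested of 13 measured leukocyte markers and 0 among 5 tested of 13 fibroblast and endothelial markers, with 2 and 3 at an unadjusted p under 0.05. With arrays scaled to the same median or by quantiles 1 leukocyte marker was lower. PTPRC, which marks all leukocytes, read 3.70 and 3.14 in A549 and 3.50 to 4.72 elsewhere, below the filter on every array. Of 12 measured neuroendocrine markers 2 were higher and 0 lower without the filter (8.56% and 6.88% of all genes). They were DDC (3.55) and CHGB (2.91), and 1 of the 2 had reached the filter only through A549.

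The A549 arrays carried epithelial markers, while the alveolar markers were low or not called. CDH1, the adhesion protein E-cadherin, read 11.96 and 12.37 in A549, 1.61 and 0.63 in H460, 13.70 and 13.67 in H1650 and 7.62 and 8.08 in H1975, so that A549 lay between H1650 and the 2 other lines. EPCAM, an epithelial surface protein, read 10.22 and 10.37 in A549, 5.97 and 5.25 in H460, 13.26 and 13.22 in H1650 and 9.18 and 8.68 in H1975. NKX2-1, the lineage factor of the distal lung, read 3.54 and 5.36 in A549 and 3.63 to 5.76 in the other arrays by its brightest probe set, which did not pass the filter, but by a further one it read 3.17 and 1.65 in A549, 1.21 to 2.23 in H460 and H1650 and 7.28 and 7.33 in H1975. The surfactant proteins SFTPB, at 7.60 and 7.35 in A549 and 7.34 to 7.97 elsewhere, and SFTPC passed it, differed from the other lines by -0.22 and -0.09 and were not called. Among the 24 measured lung epithelial lineage genes, 1 was called higher and 1 lower (8.56% and 6.88% of all genes without the filter). The higher gene was SOX2 (4.85), a factor of airway basal progenitors, at 10.69 in A549 SP and 8.83 in A549 MP. It had reached the filter only through A549. A further SOX2 probe set that passed the filter, at 8.18 and 6.09 in A549, lay 0.59 above all other arrays. Another, at 5.92 and 5.65 in A549 and 5.36 to 6.70 elsewhere, overlapped, as did the remaining dim one. The lower gene was HOPX, a marker of alveolar type I cells, which read 2.50 and 3.34 in A549, 13.39 and 13.37 in H460, 6.47 and 6.92 in H1650 and 5.72 and 5.40 in H1975. H460 carried most of the difference of -5.62, since A549 minus H460 was -10.46, minus H1650 -3.78 and minus H1975 -2.64.

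A gene was called higher in A549 when the Benjamini-Hochberg adjusted p of limma was under 0.05 for A549 minus the mean of the other 3 lines and both A549 arrays lay above all 6 others, and lower for the reverse. By this rule 1586 genes (12.7% of those tested) were higher and 1282 (10.3%) were lower. The distance between the nearest pair of A549 and other arrays is called the gap. A gap of at least 1, which is 2-fold, was found in 360 higher genes (2.89%) and 153 lower genes (1.23%), and a gap of at least 16-fold in 54 higher and 10 lower genes. The same 2-fold rule in either direction called 513 genes (4.11%) for A549 itself, against 805 (6.45%) for H460, 795 (6.37%) for H1650 and 824 (6.6%) for H1975. Of the 513 genes, 46 had A549 SP and MP at least 2-fold apart, and over the 513 the median size of the difference between SP and MP was 0.30 against 0.22 over all genes tested. A test of whether A549 differed from the other lines by population gave 0 genes past the adjusted threshold in limma and 577 at an unadjusted p under 0.05.

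The unit of replication decides these calls. With the 4 line means as the unit, 1 line against 3, limma called 0 genes, with a lowest adjusted p of 0.0691 and 345 genes at an unadjusted p under 0.05. With the line as a random block it also called 0, with a lowest adjusted p of 0.0569 and 459 genes at an unadjusted p under 0.05. The calls below therefore separate A549 from these 3 lines as measured on these arrays, and they do not extend to lung cancer lines in general. Scaling each array to the same median shifted the median difference of all genes by -0.15 and turned the split from 1586 higher and 1282 lower (55.3% higher) to 972 and 1788 (35.2% higher). Small differences, near that shift, thus have no settled direction. List counts given below after that scaling belong beside these 972 and 1788 genes, not beside the 12.7% and 10.3% of the values as deposited. The gene lists were themselves chosen with earlier results of these data known, so their shares describe these arrays and give no independent support. The counts of A549 higher genes with a 2-fold gap and A549 lower genes with a 2-fold gap moved from 360 and 153 to 300 and 195.

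**Figure D1:**
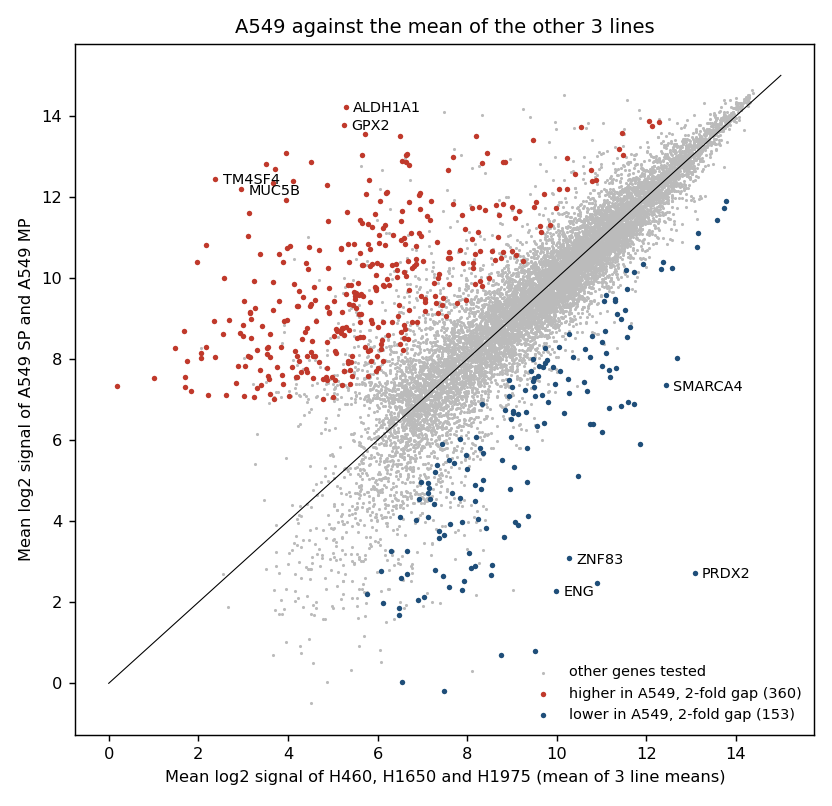
Mean log2 signal of A549 SP and A549 MP (y axis) against the mean of the line means of H460, H1650 and H1975 (x axis), 1 point per gene, with the diagonal of equal signal. Red points are the 360 genes called higher and blue points the 153 called lower with a 2-fold gap, and the red points reach down to the filter at 7 on the y axis because 197 of them passed it only through A549.

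The genes furthest above the other lines are of varied function. Over the 15 with the largest gap, A549 arrays read 7.27 to 14.07 and the other arrays -0.70 to 6.88. The differences were 7.15 to 10.07 as deposited, and 2.34 to 8.37 once linear signals under 32 were raised to 32, which limits the weight of dim signals. The deposited table carries no detection calls, so a difference against such dim signals is a size on this scale and not a measured ratio of transcripts. TM4SF4, a tetraspan membrane protein of intestine and liver, had the largest gap. Its log2 signals, SP before MP as in all such series here, were 12.42 and 12.48 in A549, 1.69 and 1.32 in H460, 3.13 and 3.38 in H1650 and 2.10 and 2.66 in H1975. The 2 A549 values lay 9.04 above the highest of the others, and the difference was 10.07 ± 0.46 (SE), adjusted p = 9.49e-06, or 7.45 with the floor. RBFOX3, the neuronal splicing factor known as NeuN, read 11.05 and 11.02 in A549, 4.09 and 2.68 in H460, 3.0 and 3.61 in H1650 and 2.16 and 3.14 in H1975, and CPLX2, a complexin of synaptic vesicle release, read 11.40 and 11.78 in A549, 2.38 and 2.36 in H460, 4.74 and 3.04 in H1650 and 2.83 and 3.42 in H1975. Neither overlapped, with differences of 7.92 ± 0.56 (SE) and 8.46 ± 0.54 (SE).

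NTS, the peptide neurotensin, read 11.54 and 14.07 in A549, 4.48 and 4.90 in H460, 0.93 and 4.34 in H1650 and 4.12 and 2.22 in H1975. Its 2 A549 arrays were 2.53 apart, the MP array being higher, and both lay above all others with a difference of 9.30 ± 0.93 (SE), adjusted p = 0.000231. CYP24A1, which inactivates vitamin D, read 12.93 and 13.15 in A549, 5.40 and 4.73 in H460, 5.65 and 6.0 in H1650 and 6.56 and 5.63 in H1975. That is a difference of 7.38 ± 0.30 (SE), adjusted p = 6.07e-06, with no overlap. ANKRD30A, a breast differentiation antigen, differed by 7.15 with the other arrays at -0.70 to 0.82, and with the floor its difference was 2.34. Its call was lost without either of the A549 arrays. The long noncoding RNA LINC02582 differed by 8.44. MUC5B, FGB, FGG, APOH, GPX2, IGFBP1, CEACAM6 and EHF complete the 15 and are described with their groups.

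**Figure D2:**
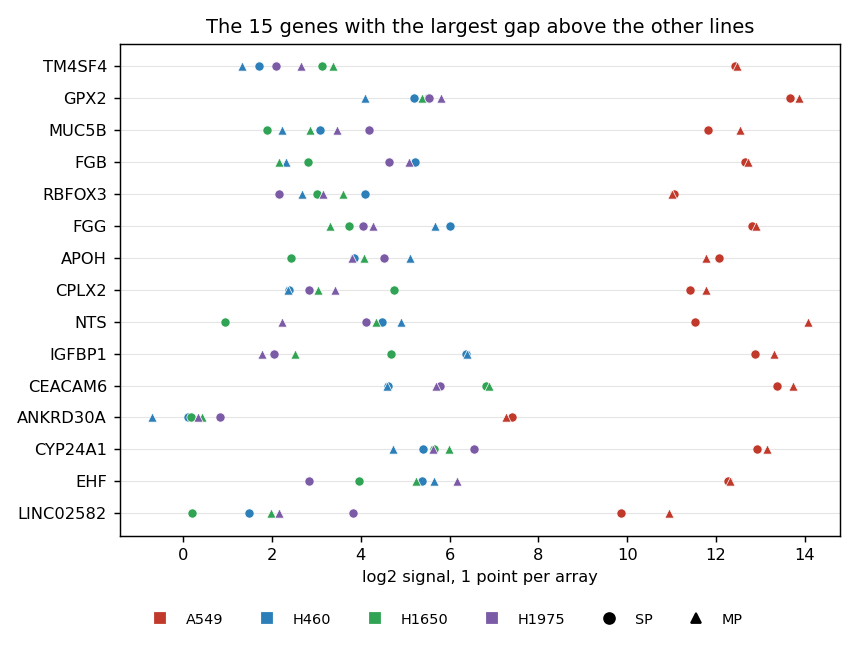
Log2 signal (x axis) of the 15 genes with the largest gap above the other lines (y axis), 1 point per array, with colour for the line, circles for SP and triangles for MP. In each gene both red A549 points lie at least 6.03 to the right of every other point, and NTS has the widest spread between its A549 points.

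Genes driven by NRF2 were mostly higher in A549 than in H1650 and H1975, and fewer of them differed from H460. Of 36 measured NRF2 target genes, 16 were called higher and 0 lower (12.7% and 10.3% of all genes tested), and 11 and 1 with arrays scaled to the same median, with a median difference as deposited of 1.22 against -0.01 over all genes tested. Line by line, at an adjusted p under 0.05 and with overlap ignored, 28 were higher in A549 than in H1650 and 0 lower (24.9% and 24.5% of all genes), and 32 higher and 1 lower than in H1975 (25.7% and 26.9% of all genes). Against H460 the counts were 7 higher and 6 lower (21.6% and 18.7% of all genes), with a median difference of 0.15. A pair of aldehyde-clearing enzymes shows the pattern. ALDH3A1, an aldehyde dehydrogenase, read 14.07 and 14.09 in A549, 13.15 and 13.19 in H460, 5.43 and 4.05 in H1650 and 4.59 and 4.56 in H1975, and AKR1B10, an aldo-keto reductase, read 14.47 and 14.55 in A549, 14.01 and 14.08 in H460, 8.61 and 9.12 in H1650 and 7.27 and 7.81 in H1975. In both genes A549 and H460 stood at 13.15 or above and the other 2 lines at 9.12 or below. The glutathione ligase subunit GCLC read 12.99 and 12.49 in A549, 11.71 and 11.49 in H460, 10.71 and 10.97 in H1650 and 10.68 and 10.30 in H1975 and differed by 1.77 ± 0.15 (SE), adjusted p = 0.000116. The aldo-keto reductases AKR1C2 and AKR1C3, close relatives whose probe sets may share signal, differed by 4.57 and 4.92.

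GPX2 and ABCC3 were the 2 NRF2 target genes with a 2-fold gap to every line, H460 included. Among the called NRF2 target genes, GPX2 alone had reached the filter only through A549. GPX2, the gastrointestinal glutathione peroxidase, read 13.68 and 13.88 in A549, 5.20 and 4.09 in H460, 5.51 and 5.38 in H1650 and 5.55 and 5.80 in H1975. Its difference was 8.53 ± 0.31 (SE), adjusted p = 4.66e-06, and no other line came within 7.88 of the A549 arrays. ABCC3, an efflux pump for organic anions, read 12.92 and 12.98 in A549, 10.79 and 10.79 in H460, 10.06 and 9.54 in H1650 and 9.71 and 10.50 in H1975, with a difference of 2.72 ± 0.22 (SE), adjusted p = 9.37e-05. The GPX2 promoter is shown because it holds the antioxidant response element, TGACNNNGC on either strand, to which NRF2 binds. The 250 bases before the RefSeq start, on GRCh38.p14 at chr14:64942746-64942995 on the minus strand, read as follows 5′ to 3′ in the direction of the gene, with the match in capitals.
GPX2: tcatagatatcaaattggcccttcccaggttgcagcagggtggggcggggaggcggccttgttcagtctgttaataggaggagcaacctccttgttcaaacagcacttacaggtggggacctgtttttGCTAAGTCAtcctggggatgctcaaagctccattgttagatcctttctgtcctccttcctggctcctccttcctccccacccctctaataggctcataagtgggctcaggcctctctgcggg
The match starts 122 bases before the start and lies on the strand opposite to the gene. Among genes with a 2-fold gap the motif was found in 21 of 271 higher genes with a promoter in the table (7.75%) and 13 of 120 lower genes (10.8%), against 12.3% of all genes tested and 11% of all promoters listed by RefSeq.

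Aldehyde dehydrogenases and cytochromes P450 were a second detoxifying group. Of 33 measured aldehyde and xenobiotic metabolism genes, 11 were higher and 1 lower (8.56% and 6.88% of all 19775 genes without the filter). With it 28 were tested and 11 called higher, of which 6 had passed only through A549. ALDH1A1, the retinal dehydrogenase used as a stem cell marker, read 14.13 and 14.32 in A549, 11.44 and 12.06 in H460, 2.80 and 1.72 in H1650 and 3.47 and 0.22 in H1975. Both A549 arrays lay 2.06 above the H460 arrays, which in turn stood far above H1650 and H1975, and the difference from the 3 lines was 8.94 ± 0.66 (SE), adjusted p = 6.96e-05. ALDH2, the mitochondrial enzyme that oxidises acetaldehyde, read 12.94 and 13.22 in A549, 8.19 and 8.31 in H460, 8.72 and 8.28 in H1650 and 8.62 and 8.55 in H1975, and here no other line was near A549. The cytochrome CYP2S1 differed by 3.99 ± 0.26 (SE) and CYP3A5, a drug-metabolising enzyme, by 4.59 ± 0.75 (SE). ABCG2, the dye pump of the side population, was not called and read 12.22 and 11.13 in A549, 12.71 and 12.35 in H460, 10.75 and 11.45 in H1650 and 10.06 and 8.89 in H1975, with a difference of 0.64 ± 0.33 (SE), adjusted p = 0.147.

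Genes for plasma proteins that the liver secretes were among the most distinctive of A549. Of 45 measured members, 17 were called higher and 1 lower without the filter (8.56% and 6.88% of all genes). With it 24 were tested and 16 called, of which 13 had passed only through A549. The fibrinogen chains FGB and FGG, which form the clot, were far apart from the other lines. FGB read 12.65 and 12.73 in A549, 5.23 and 2.32 in H460, 2.80 and 2.16 in H1650 and 4.63 and 5.09 in H1975, and FGG read 12.81 and 12.90 in A549, 6.02 and 5.68 in H460, 3.74 and 3.30 in H1650 and 4.04 and 4.27 in H1975. Neither overlapped, and their differences were 8.99 ± 0.63 (SE), adjusted p = 5.37e-05, and 8.35 ± 0.28 (SE), adjusted p = 4.66e-06. FGA, the third chain, was higher by 2.01 ± 0.33 (SE) with A549 arrays at 7.61 and 7.16, close to the filter. APOH, an apolipoprotein that binds phospholipids, read 12.08 and 11.78 in A549, 3.83 and 5.10 in H460, 2.42 and 4.08 in H1650 and 4.52 and 3.80 in H1975, a difference of 7.97 ± 0.53 (SE). The complement protein C5 differed by 5.83 ± 0.22 (SE), the chains C4BPB and C4BPA of the protein that binds C4 by 4.97 and 5.04, ceruloplasmin (CP) by 5.11 and the retinol carrier RBP4 by 6.51. Some of these genes keep a signal elsewhere: CFI, a complement protease, lay only 1.10 above H1975. With overlap ignored, 5 of the 24 tested members were lower in A549 than in H1975 and 15 higher (26.9% and 25.7% of all genes tested).

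The transcription factors of liver and endoderm were split. Of 26 measured, 6 were called higher and 0 lower without the filter (8.56% and 6.88% of all genes). Of the 18 tested with it 5 were higher and 0 lower, and 3 of the 5 had passed only through A549. Those counts became 3 and 1 with arrays scaled to the same median. NR5A2, a nuclear receptor of liver and pancreas, read 9.70 and 9.61 in A549, 4.74 and 4.74 in H460, 6.26 and 6.69 in H1650 and 4.14 and 6.32 in H1975, and FOXA3, a forkhead factor of gut and liver, read 8.72 and 8.28 in A549, 3.87 and 4.42 in H460, 2.21 and 4.22 in H1650 and 5.65 and 5.55 in H1975. Both A549 arrays of each lay above all others, with differences of 4.17 ± 0.47 (SE), adjusted p = 0.000393, and 4.18 ± 0.54 (SE), adjusted p = 0.000803. HNF4G differed by 4.17 ± 1.0 (SE), with H460 nearest at a gap of 0.91, and its call was lost without the A549 SP array. FOXA2, GATA4 and CDX2 did not pass the filter in any line, and FOXA1, at 7.53 and 8.25 in A549, was higher in H460. The letters of the FOXA core, TGTTTAC on either strand, were searched in the 250 bases before each start and found in 3.69% of the higher and 2.50% of the lower genes with a 2-fold gap, against 1.94% of genes tested, 2.98% of all promoters in the table and 4.30% of the higher genes of H1975. These shares rest on 10 and 3 promoters. A match of letters describes the promoter and does not show a bound factor.

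Mucins and the genes that build and guard mucus formed the group with the largest share of calls. Of 34 measured, 17 were higher and 0 lower without the filter (8.56% and 6.88% of all genes). Of the 22 tested with it 16 were called, 9 of which had passed only through A549. MUC5B, a gel-forming airway mucin, read 11.83 and 12.54 in A549, 3.08 and 2.23 in H460, 1.89 and 2.86 in H1650 and 4.19 and 3.46 in H1975, with a difference of 9.24 ± 0.52 (SE), adjusted p = 2.11e-05. CEACAM6, a surface adhesion protein of gut and airway, read 13.38 and 13.75 in A549, 4.60 and 4.60 in H460, 6.83 and 6.88 in H1650 and 5.78 and 5.69 in H1975, and its close relative CEACAM5, with which it may share signal, read 10.46 and 10.91 in A549, 4.08 and 4.99 in H460, 4.34 and 3.85 in H1650 and 5.05 and 5.80 in H1975. GCNT3, which branches mucin sugars, read 12.97 and 12.58 in A549, 7.30 and 7.44 in H460, 6.71 and 7.10 in H1650 and 5.72 and 5.90 in H1975. By these probe sets of the 4 genes no other array came within 4.65 of A549. A further CEACAM5 probe set, below the filter, read 6.24 and 6.49 in A549 and 4.60 to 6.41 elsewhere and overlapped. The goblet cell factor SPDEF differed by 3.77, the second gel-forming mucin MUC5AC by 2.61 and the trefoil peptide TFF1 by 4.37. AGR2, a disulphide isomerase needed for mucin folding, was close to the level of H460 and read 13.99 and 14.04 in A549, 13.94 and 13.88 in H460, 8.06 and 7.93 in H1650 and 2.95 and 3.20 in H1975.

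Genes for prostaglandin synthesis and for its breakdown were both higher in A549. Of 28 measured eicosanoid genes, 9 were higher and 0 lower without the filter (8.56% and 6.88% of all genes). With it 18 were tested and 8 called higher, of which 3 had passed only through A549. PTGS2, the inducible cyclooxygenase that makes prostaglandin H, read 13.64 and 13.36 in A549, 9.55 and 8.82 in H460, 5.41 and 5.53 in H1650 and 4.55 and 5.20 in H1975. HPGD, the dehydrogenase that inactivates prostaglandins, read 12.30 and 12.38 in A549, 6.31 and 5.86 in H460, 3.32 and 0.34 in H1650 and 3.85 and 2.26 in H1975. Both stood apart from all 6 other arrays, with differences of 6.99 ± 0.27 (SE), adjusted p = 5.53e-06, and 8.68 ± 0.59 (SE), adjusted p = 4.68e-05. The phospholipase PLA2G4A, which frees arachidonic acid, had H460 close behind and read 12.49 and 13.04 in A549, 11.74 and 11.98 in H460, 0.28 and 3.66 in H1650 and 2.02 and 4.09 in H1975. ALOX5, which starts leukotriene synthesis, differed by 3.48 and the thromboxane synthase TBXAS1 by 2.46. The further probe sets of ALOX5, all dim and below the filter, overlapped with other lines.

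Among growth factors and their binding proteins, 3 ligands of the EGF family were higher, 1 was lower and the EGF receptor was not called. EREG, the ligand epiregulin, read 12.31 and 11.90 in A549, 3.50 and 5.18 in H460, 5.93 and 7.15 in H1650 and 7.92 and 7.48 in H1975, a difference of 5.91 ± 0.44 (SE), adjusted p = 7.3e-05. The ligands NRG1 and BTC were higher by 2.34 ± 0.11 (SE) and 2.39 ± 0.46 (SE), while the ligand HBEGF differed by -1.72 ± 0.20 (SE). MYEOV, a gene amplified in some cancers, was higher by 4.72 ± 0.23 (SE). EGFR read 11.59 and 11.68 in A549, 10.64 and 10.17 in H460, 13.16 and 13.11 in H1650 and 10.53 and 10.71 in H1975. By this probe set A549 lay below H1650 and above the other 2 lines, with a difference of 0.25 ± 0.14 (SE), adjusted p = 0.163. A further probe set kept that order, at 11.39 and 11.43 in A549 and 10.67 and 10.88 in H1975. By another A549, at 10.07 and 9.91, lay below H1975, at 11.32 and 11.38. Of 34 measured genes of the EGFR family and its ERK output, 6 were higher and 1 lower without the filter (8.56% and 6.88% of all genes). With it 6 of 32 tested were higher, and 1 of these 6 had passed only through A549. IGFBP1, an insulin-like growth factor carrier of liver, read 12.89 and 13.30 in A549, 6.37 and 6.38 in H460, 4.67 and 2.52 in H1650 and 2.05 and 1.78 in H1975 and differed by 9.13 ± 0.50 (SE), adjusted p = 1.98e-05. IGFBP4 differed by 5.09 ± 0.37 (SE), and LIN28B, an RNA-binding repressor of the let-7 microRNAs, by 4.94 ± 0.95 (SE), a call that was lost without either A549 array. IGF2BP3, an RNA-binding protein of fetal tissue, was lower with a difference of -1.27 ± 0.08 (SE). Of 18 measured genes of the IGF pathway 6 were higher and 2 lower without the filter (8.56% and 6.88% of all genes), and 3 of the 6 had reached the filter only through A549.

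Wnt pathway genes were more often higher than lower. Of 32 measured, 10 were higher and 2 lower without the filter (8.56% and 6.88% of all genes). With it 10 of 21 tested were higher and 1 lower, and 2 of the 10 had passed only through A549. Those counts became 6 and 1 with arrays scaled to the same median. The secreted inhibitor SFRP1 read 10.09 and 10.55 in A549, 4.95 and 5.66 in H460, 5.62 and 5.94 in H1650 and 6.01 and 5.88 in H1975, and DKK3 differed by 3.93. LGR6, a receptor for R-spondins, differed by 4.31 and AXIN2, a feedback target of the pathway, by 3.74 ± 0.69 (SE). The call of AXIN2 was lost without the A549 SP array, and its further probe sets, all below the filter, overlapped with other lines. Among the bone morphogenetic and activin factors, BMP4 read 8.29 and 8.02 in A549, 1.55 and 1.81 in H460, 1.61 and 1.67 in H1650 and 2.36 and 3.36 in H1975, and INHBB differed by 5.37 ± 0.40 (SE). INHBA, the other activin chain, was lower and read 3.48 and 3.72 in A549, 8.0 and 7.62 in H460, 6.57 and 6.98 in H1650 and 11.91 and 11.90 in H1975. By this probe set INHBA differed by -5.23 ± 0.23 (SE), but by a further one A549, at 5.03 and 5.01, lay above H460 and H1650, at 3.39 to 4.52, and below H1975, at 9.67 and 9.30. Of 43 measured cytokine and chemokine genes 9 were higher and 3 lower without the filter (8.56% and 6.88% of all genes), and 2 of the 9 had reached the filter only through A549. The interleukin IL18 was higher by 2.36 ± 0.14 (SE) and IL6 lower, with a difference of -3.02 ± 0.16 (SE).

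Epithelial and mesenchymal genes ran both ways. Of 35 measured epithelial junction genes 2 were higher and 0 lower (12.7% and 10.3% of all genes tested), and 3 were lower with arrays scaled to the same median and 2 by quantiles. The higher genes were EHF and CLDN2, and both had reached the filter only through A549. EHF, an epithelial ETS factor, read 12.26 and 12.31 in A549, 5.37 and 5.65 in H460, 3.95 and 5.25 in H1650 and 2.84 and 6.16 in H1975, and CLDN2, a pore-forming claudin, read 11.19 and 11.47 in A549, 5.52 and 5.99 in H460, 5.68 and 6.24 in H1650 and 5.05 and 6.18 in H1975. Their differences were 7.42 ± 0.60 (SE), adjusted p = 9.46e-05, and 5.55 ± 0.25 (SE), adjusted p = 9.19e-06. Line by line, with overlap ignored, the group ran both ways. Of its members 25 were lower than in H1650 and 3 higher (24.5% and 24.9% of all genes tested). Against H460 19 were higher and 1 lower (21.6% and 18.7% of all genes). Of 37 measured mesenchymal genes 5 were higher and 2 lower without the filter (8.56% and 6.88% of all genes). With it the counts were 6 and 2 of 33, and 2 of the 6 had passed only through A549. CDH2, N-cadherin, read 9.25 and 9.09 in A549, 4.80 and 5.22 in H460, 5.0 and 5.84 in H1650 and 4.85 and 5.56 in H1975 and differed by 3.96 ± 0.33 (SE), adjusted p = 0.000106, whereas SNAI1, the factor that represses CDH1, read 3.80 and 6.15 in A549, 7.97 and 9.03 in H460, 10.22 and 9.33 in H1650 and 9.82 and 9.69 in H1975 and was lower, with a difference of -4.37 ± 0.54 (SE). VIM, the mesenchymal filament vimentin, read 13.50 and 13.61 in A549, 13.83 and 13.77 in H460, 10.70 and 9.51 in H1650 and 13.75 and 13.87 in H1975, and without H1650 its difference turned from 0.98 to -0.25. Of 14 measured keratins 6 were higher and 0 lower without the filter (8.56% and 6.88% of all genes), and 2 of the 6 had reached the filter only through A549. They were led by KRT4 (6.25), a keratin of stratified lining, and KRT20 (3.75), a keratin of gut epithelium. HOXB8, a position gene of the HOXB cluster, differed by 4.42 ± 0.45 (SE), while its further probe set, below the filter, overlapped. Of 23 measured HOX genes 5 were higher and 0 lower without the filter (8.56% and 6.88% of all genes). With arrays scaled to the same median 3 of 16 tested were higher, in place of 5.

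**Figure D3:**
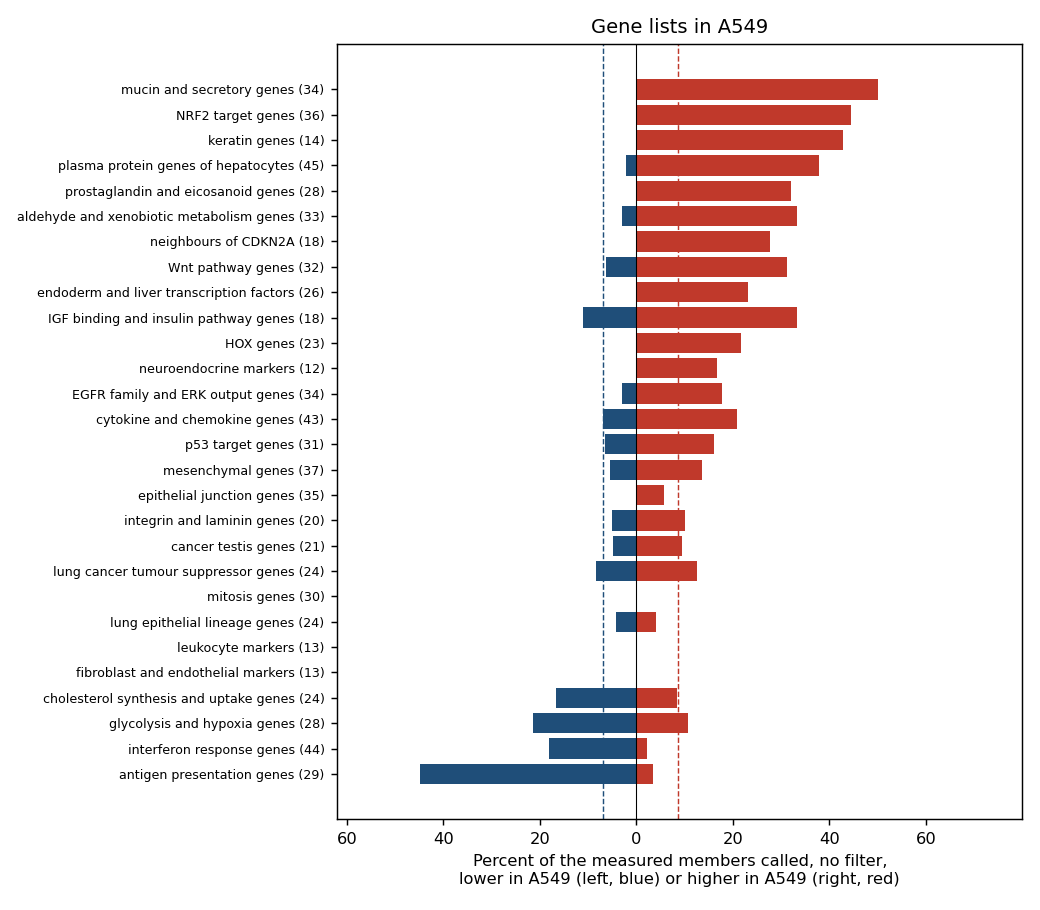
Percent of the measured members of each gene list (y axis, number measured in brackets, lists with at least 10) that were called higher (red, to the right) or lower (blue, to the left) in A549 without the filter on dim genes. The dashed lines mark 8.56% higher and 6.88% lower over all 19775 genes, and mucin genes (17 of 34) reach furthest to the right and antigen presentation genes (13 of 29) furthest to the left.

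With a 2-fold gap, fewer genes were lower in A549 than higher under each scaling, and the largest gaps below the other lines lay in single genes of varied function. Over the 15 with the largest gap the A549 arrays read -0.71 to 7.83 and the other arrays 6.34 to 13.68. PRDX2, a thiol peroxidase that removes hydrogen peroxide, had the largest gap and read 1.17 and 4.28 in A549, 13.01 and 13.02 in H460, 12.78 and 12.84 in H1650 and 13.41 and 13.38 in H1975. The signal in A549 was 8.50 below the lowest other array, with a difference of -10.35 ± 0.58 (SE), adjusted p = 2.04e-05, or -8.07 with the floor on dim signals. A further PRDX2 probe set read 4.03 and 5.02 in A549 and 11.12 to 12.04 elsewhere, while another, at 8.04 and 7.70 in A549 and 7.99 to 9.30 elsewhere, overlapped. With the SP arrays alone, PRDX2 was the only gene that limma called with the line as the unit (adjusted p = 0.0473). Its relative PRDX1 read 14.16 and 14.27 in A549 and 13.51 to 14.27 elsewhere and was not called.

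ENG, the TGF-beta co-receptor endoglin, read 2.69 and 1.88 in A549, 9.51 and 9.88 in H460, 10.06 and 9.87 in H1650 and 10.18 and 10.45 in H1975. It did not overlap, with a difference of -7.71 ± 0.26 (SE), adjusted p = 4.66e-06. PRMT6, an arginine methyltransferase of histones, read 2.07 and -0.49 in A549, 9.60 and 9.62 in H460, 10.57 and 10.53 in H1650 and 8.27 and 8.52 in H1975, and TEX15, a germ cell gene, read 0.45 and 0.93 in A549, 6.67 and 6.34 in H460, 9.02 and 9.33 in H1650 and 10.68 and 10.44 in H1975. By these probe sets every A549 value of both genes lay at least 5.40 below the lowest value of the other lines. A further TEX15 probe set, below the filter, read 4.71 and 5.56 in A549 and 4.99 to 6.42 elsewhere and overlapped. OXCT1, the mitochondrial enzyme that lets cells burn ketone bodies, read 7.08 and 6.80 in A549, 11.39 and 11.41 in H460, 11.57 and 11.73 in H1650 and 11.73 and 11.73 in H1975, and its A549 signal stayed at the level of the filter. The difference of OXCT1 was -4.66 ± 0.12 (SE), adjusted p = 2e-06. The matrix genes SPOCK1, LOXL1 and COL8A1 were lower by differences of -5.95, -4.92 and -8.42, with H460 the highest line in COL8A1 at 13.48 and 13.68. ARMCX2 and SPATC1L, whose roles are less known, differed by -5.58 and -5.23.

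**Figure D4:**
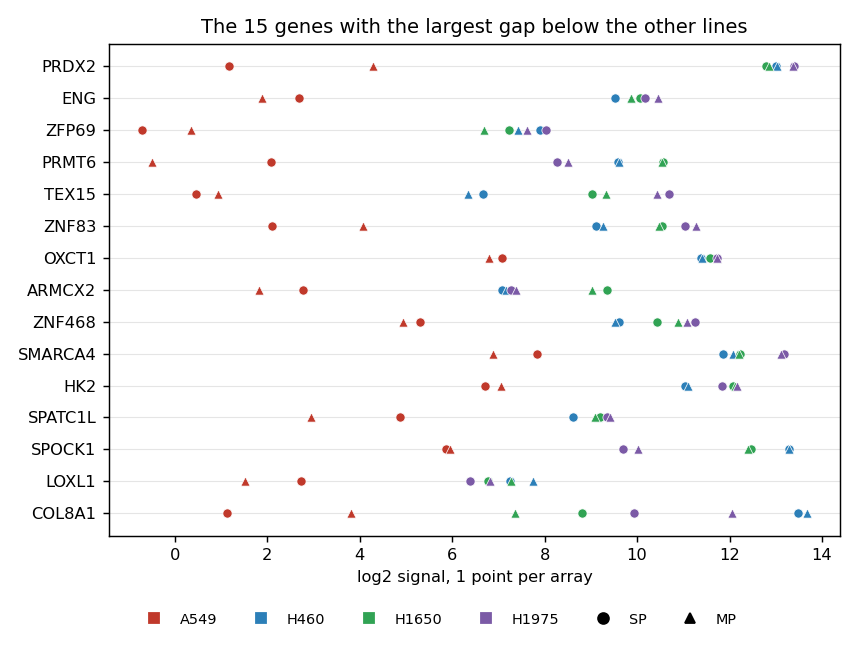
Log2 signal (x axis) of the 15 genes with the largest gap below the other lines (y axis), 1 point per array, with colour for the line, circles for SP and triangles for MP. Both red A549 points of each gene lie at least 3.55 to the left of every other point, and the 2 A549 points of PRDX2 are 3.12 apart while its 6 other points lie between 12.78 and 13.41.

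SMARCA4, the ATPase subunit BRG1 of SWI/SNF, was the tumour suppressor with the largest gap. It read 7.83 and 6.88 in A549, 11.87 and 12.08 in H460, 12.22 and 12.20 in H1650 and 13.18 and 13.10 in H1975, a difference of -5.09 ± 0.21 (SE), adjusted p = 6.07e-06. A further probe set of it read 7.62 and 7.35 in A549 and 11.57 to 12.85 elsewhere, while another read 6.94 and 6.50 in A549 and 6.05 to 7.48 elsewhere and overlapped. SMARCA2, the alternative ATPase of the complex, read 10.49 and 10.76 in A549, 10.21 and 10.22 in H460, 10.65 and 10.74 in H1650 and 9.30 and 8.96 in H1975 and was not called. Of 21 tumour suppressor genes tested, 2 were higher (TGFBR2 and FAT1) and 2 lower (SMARCA4 and NF2), against 12.7% and 10.3% of all genes tested. After scaling to the same median 1 was higher and 7 lower, with FAT1 no longer called, where 972 and 1788 of all genes were. The call of NF2 rests on its brightest probe set. By a further one it read 6.30 and 6.36 in A549, 6.26 and 5.51 in H460 and 9.37 to 10.30 in H1650 and H1975. Most of the rest overlapped with H460 too, but not all. By another NF2 read 7.17 and 7.08 in A549 and 7.59 to 9.86 elsewhere. STK11, a kinase upstream of AMPK, read 8.13 and 8.28 in A549, 8.31 and 8.66 in H460, 8.02 and 8.05 in H1650 and 9.15 and 9.24 in H1975 and KEAP1 read 10.70 and 10.17 in A549, 10.73 and 10.64 in H460, 10.44 and 10.67 in H1650 and 11.30 and 11.18 in H1975, and both overlapped with the other lines, with differences of -0.37 ± 0.16 (SE), adjusted p = 0.0932, and -0.39 ± 0.15 (SE), adjusted p = 0.0649. CDKN2A, the cell cycle inhibitor locus of p16, read 5.70 and 6.65 in A549, 5.18 and 6.21 in H460, 5.96 and 5.95 in H1650 and 9.33 and 9.21 in H1975. Its neighbour CDKN2B read 0.37 and -1.36 in A549, 0.09 and 2.75 in H460, 2.66 and 0.45 in H1650 and 10.57 and 10.51 in H1975. For both, H1975 stood high and the arrays of A549, H460 and H1650 overlapped below it. MTAP, also a neighbour, had probe sets that disagree: by the one with the highest mean it read 8.81 and 9.32 in A549, 8.59 and 8.71 in H460, 10.45 and 10.50 in H1650 and 7.66 and 7.46 in H1975, and by a further one 1.96 and 0.13 in A549, 9.78 and 10.02 in H460, 1.69 and 0.39 in H1650 and 8.21 and 8.67 in H1975. Of 12 tested neighbours of CDKN2A on the short arm of chromosome 9, 4 were higher and 0 lower (12.7% and 10.3% of all genes tested), led by MLLT3 (2.27), and 3 and 1 with arrays scaled to the same median.

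Antigen presentation was the group with the largest share of lower genes. Of 29 measured, 13 were lower and 1 higher (6.88% and 8.56% of all genes without the filter), with a median difference of -1.41 among 26 tested. The classical class I heavy chains HLA-B and HLA-C, which display peptides to T cells, were lower in A549. HLA-B read 11.19 and 11.65 in A549, 13.65 and 13.63 in H460, 13.46 and 13.23 in H1650 and 13.57 and 13.86 in H1975, and HLA-C read 11.61 and 12.20 in A549, 13.56 and 13.62 in H460, 13.75 and 13.68 in H1650 and 13.92 and 14.08 in H1975. Neither overlapped, and they differed by -2.14 ± 0.13 (SE), adjusted p = 3.03e-05, and -1.86 ± 0.12 (SE), adjusted p = 3.95e-05. HLA-G and HLA-F differed by -2.36 and -1.96. HLA genes are close relatives and their probe sets may share signal. The peptide transporter TAP1 differed by -1.11, the immunoproteasome subunits PSMB8 and PSMB9 by -1.34 and -1.82, and NLRC5, the transactivator of class I genes, by -1.85. HLA-DMB, a class II chaperone, went the other way and read 11.03 and 11.19 in A549, 6.28 and 6.33 in H460, 7.42 and 7.57 in H1650 and 6.81 and 7.20 in H1975. Against each single line, with overlap ignored, 14 to 19 members were lower and 1 to 3 higher. Of all genes tested 18.7% to 26.9% were lower and 21.6% to 25.7% higher in these comparisons.

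Interferon response genes were mostly lower than in H1650 and H1975 and mostly higher than in H460. Of 44 tested, 8 were lower and 1 higher by the rule for all lines (10.3% and 12.7% of genes tested). Line by line, with overlap ignored, 34 were lower than in H1650 and 2 higher (24.5% and 24.9% of all genes tested). Against H1975 26 were lower and 7 higher (26.9% and 25.7% of all genes). Against H460 9 were lower and 24 higher (18.7% and 21.6% of all genes), so the lower share there was near that of all genes. The median differences were -1.96, -1.02 and 0.60. IFI44, an interferon-induced gene, read 7.31 and 7.57 in A549, 9.01 and 9.50 in H460, 11.58 and 11.46 in H1650 and 11.01 and 11.15 in H1975. Here A549 lay below all others, with a difference of -3.18 ± 0.15 (SE), adjusted p = 9.82e-06. IFIH1, a sensor of viral RNA, read 7.45 and 7.50 in A549, 7.52 and 7.82 in H460, 10.44 and 10.70 in H1650 and 10.43 and 10.43 in H1975, with A549 and H460 nearly level. IRF7, the factor that amplifies interferon genes, read 9.18 and 8.95 in A549, 7.40 and 7.58 in H460, 4.37 and 3.31 in H1650 and 7.97 and 8.01 in H1975. Its difference was 2.62 ± 0.30 (SE), of which H1650 carried most: A549 minus H1650 was 5.22, minus H460 1.57 and minus H1975 1.07.

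Glycolysis genes were mixed. HK2, the hexokinase of many tumours, read 6.70 and 7.06 in A549, 11.04 and 11.10 in H460, 12.08 and 12.13 in H1650 and 11.85 and 12.16 in H1975 and did not overlap, with a difference of -4.84 ± 0.12 (SE), adjusted p = 1.83e-06. HK1, the other main hexokinase, read 10.94 and 11.18 in A549, 10.61 and 10.95 in H460, 11.82 and 11.74 in H1650 and 11.62 and 12.22 in H1975 and was not called. PFKFB4, which makes the activator of phosphofructokinase, differed by -2.01 ± 0.22 (SE), and VEGFA, a hypoxia target, by -1.50 ± 0.10 (SE). GPI and PKM, glycolytic enzymes, were higher by 1.02 and 0.96. Of 28 genes of glycolysis and hypoxia, 3 were higher and 6 lower (12.7% and 10.3% of all genes tested), and 2 and 6 with arrays scaled to the same median. Cholesterol genes had 2 higher and 4 lower of 23 tested, against the same shares, and 0 higher after that scaling. Of 29 tested p53 target genes 5 were higher and 2 lower (17.2% and 6.90%), against the same shares over all genes, and 3 and 2 after that scaling. The largest gaps were those of SESN2 (-0.95), a stress sensor, and the decoy receptor TNFRSF10D (0.96), and both calls were lost without A549 SP. Of 18 integrin and laminin genes 2 were higher and 1 lower (12.7% and 10.3% of all genes tested), and 0 and 1 after that scaling. The lower gene was ITGB3 (-2.33), whose further probe sets all overlapped, the one with the highest signal reading 2.43 and 3.72 in A549, 3.23 to 5.29 in H460 and H1650 and 10.42 and 10.51 in H1975. Of 7 cancer testis genes tested 2 were higher and 0 lower (12.7% and 10.3% of all genes tested), and 1 and 0 after that scaling. As deposited they were MAGEA6 (3.85), whose relatives may share its signal, and PRAME (0.65), a call lost without A549 MP and without H460. Of 30 mitosis genes 0 were called by limma in either direction (12.7% higher and 10.3% lower of all genes tested). Of these 4 had an unadjusted p under 0.05, with a median difference over the 30 of -0.16, although after scaling to the same median 2 were lower. TOP2A differed by 0.92 and CDK1 by 0.91, and both overlapped with other arrays.

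Zinc finger genes, many of which encode repressors that bind DNA, were prominent among the lower genes. This group was chosen after the values were seen, and the other lists with earlier results of these data known. Of 422 tested genes with symbols of the ZNF, ZFP and ZSCAN series, 66 (15.6%) were lower and 15 (3.55%) higher, against 10.3% and 12.7% of all genes, with a median difference of -0.42. Line by line, with overlap ignored, 139 were lower than in H1650 and 34 higher (24.5% and 24.9% of all genes tested). Against H1975 217 were lower and 43 higher (26.9% and 25.7% of all genes). Against H460 67 were lower and 59 higher (18.7% and 21.6% of all genes), with a median of -0.01. ZNF83 read 2.09 and 4.08 in A549, 9.10 and 9.26 in H460, 10.55 and 10.48 in H1650 and 11.03 and 11.27 in H1975, and ZNF468 read 5.30 and 4.93 in A549, 9.61 and 9.51 in H460, 10.42 and 10.89 in H1650 and 11.26 and 11.08 in H1975. ZFP69, a KRAB zinc finger protein, read -0.71 and 0.34 in A549, 7.91 and 7.42 in H460, 7.22 and 6.70 in H1650 and 8.02 and 7.61 in H1975. In all of these 3 the A549 arrays lay at least 4.22 below every other array, with H460 the next lowest line in ZNF83 and ZNF468. ZNF83, ZNF468 and the genes tested between and beside them, ZNF701, ZNF137P, ZNF611 and ZNF600, stand next to each other on chromosome 19 in the RefSeq order, and all 6 were lower, with a median difference of -4.50. Promoters of PRDX2 and ZNF83 are printed to set 2 lower genes beside the promoter of GPX2 above, with each CpG in capitals, from GRCh38.p14: PRDX2 at chr19:12801801-12802050 on the minus strand and ZNF83 at chr19:52690497-52690746 on the minus strand.
PRDX2: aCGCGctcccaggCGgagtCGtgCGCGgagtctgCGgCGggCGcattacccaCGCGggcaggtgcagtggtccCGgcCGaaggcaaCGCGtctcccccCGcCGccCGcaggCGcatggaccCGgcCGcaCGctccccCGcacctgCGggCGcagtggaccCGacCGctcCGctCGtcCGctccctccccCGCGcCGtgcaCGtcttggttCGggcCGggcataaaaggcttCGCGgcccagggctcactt
ZNF83: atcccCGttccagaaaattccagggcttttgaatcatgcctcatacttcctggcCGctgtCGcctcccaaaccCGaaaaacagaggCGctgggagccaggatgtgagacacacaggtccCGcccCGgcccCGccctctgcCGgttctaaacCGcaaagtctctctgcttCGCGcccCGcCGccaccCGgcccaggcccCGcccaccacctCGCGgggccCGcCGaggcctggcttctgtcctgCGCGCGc
PRDX2 has 38 CpG and ZNF83 has 23 in these 250 bases. GPX2 has 3. These are single genes. The medians were 18 over the lower and 11 over the higher genes with a 2-fold gap, and 21 over all genes tested.

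The promoters of the higher genes held fewer CpG than those of all genes tested, and as many as all promoters of the RefSeq table. The median over the higher genes with a 2-fold gap was 11 CpG in 250 bases, over the lower genes 18, over all genes tested 21 and, over the whole RefSeq list of 27305 promoters, also 11. At least 10 CpG were found in 52.8% of the higher genes, 70% of the lower, 83.9% of all genes tested and 51.9% of all promoters. By the same rule the higher genes of H460, H1650 and H1975 had medians of 18, 17 and 17, and 66.7%, 66.2% and 70.2% of them had at least 10. The genes tested are those with signal in at least 1 line, so which background is used decides whether these shares lie below it. Only 271 of 360 higher and 120 of 153 lower genes have a promoter in the RefSeq table, and 197 of the 360 passed the filter only through A549.

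**Figure D5:**
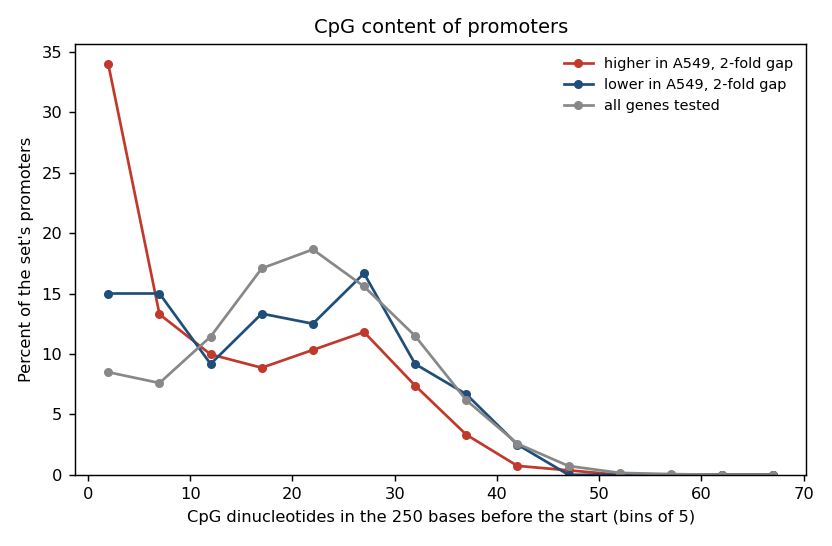
Percent of promoters (y axis) by the number of CpG dinucleotides in the 250 bases before the RefSeq start (x axis, bins of 5 drawn at their middle) for the 271 higher genes, the 120 lower genes and the 10153 tested genes with a promoter. The higher genes peak in the lowest bin, while the tested genes as a whole peak in the bin of 20 to 24.

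Further probe sets of the same genes were also compared, where they passed the filter themselves. For 117 of the 360 higher genes with a 2-fold gap, 204 further probe sets passed the filter, 203 had the same direction and 192 (94.1%) did not overlap, against 12.2% of all other further probe sets. For 69 of the 153 lower genes there were 117, of which 113 had the same direction and 93 (79.5%) did not overlap, against 9.0%. These probe sets measure the same RNA on the same arrays and are no replicates. Of the 360 higher genes 197 had passed the filter only through A549. Where the other lines are dim, a further probe set can pass only by a high A549 signal, and dim ones that overlapped were left out. The share of 94.1% is thus partly fixed by the filter and is no independent check. H460 was the line nearest to A549 in 71 of the 153 lower genes (46.4%, where H460 was the lowest of the 3 in 37.5% of all genes tested) and in 127 of the 360 higher genes (35.3%, against 33.3%). Other cultures of A549 were not analysed here, so differences between stocks of the line and differences between the lines cannot be told apart.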

How the data were processed

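RNA of the side population (SP) and main population (MP) of A549, H460, H1650 and H1975 was measured on Affymetrix U133 Plus 2.0 arrays, 1 array for each population of a line. The deposited values are log2 signals that the authors made with MAS5, which the submitters' processing notes name beside GCOS 1.4, and every array had been scaled to 1 target, with a trimmed mean (2% at each end) of 500.1 after the logarithm was undone. The methods also name a mean centring, which was not found in the values. No detection calls are given in the sources used here, and the number of arrays limits the precision.

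Of 54675 probe sets, 41097 had 1 gene symbol, 1801 several and 11777 none; those with several or none, 62 control probe sets, XIST and genes of the Y chromosome were left out of named results. Each gene was taken at its brightest probe set, and 12478 of 19775 genes had a highest line mean of at least 7. limma 3.58.1 in R 4.3.3 fitted line and population over all 8 arrays, with 3 residual degrees of freedom, a trend in eBayes and Benjamini-Hochberg adjustment over all genes tested. Adjusted p-values in the text come from that fit. The procedure was checked on simulated data with independent arrays and no difference among the other 3 lines. That check therefore cannot show whether calls of 1 line against 3 hold where lines differ. Genes are named as the 15 largest gaps in each direction, up to 4 called members of each of 28 lists, and a few genes of lung cancer, whatever their values; any others were named after their values were seen, among them the zinc finger genes and list members beyond the first 4. Members and lists were chosen with earlier results of these data known. Promoters came from RefSeq on GRCh38.p14, 250 bases before the first listed start. Alternatives changed the floor on dim signals, scaling, filter, probe set, fit, unit of replication, threshold and arrays.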

Additional observations from a re-analysis of the deposited data

How the results depend on the processing

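The counts of A549 higher genes and A549 lower genes, and of A549 higher genes with a 2-fold gap and A549 lower genes with a 2-fold gap, depended most on the unit of replication. With line means as the unit, the line as a random block, or the MP arrays alone, 0 genes were called higher and 0 lower, with or without a 2-fold gap. With the SP arrays alone 0 were higher and 1 lower, and the counts with a 2-fold gap were 0 and 1. Scaling to the same median gave 972 higher genes in place of 1586, a filter on the mean over all arrays gave 230 in place of 360 with a 2-fold gap, and asking for a call against each line gave 744 higher and 607 lower. Leaving out 1 array or 1 line gave 1210 to 2308 higher and 1153 to 2374 lower genes, and 373 to 662 and 159 to 573 with a 2-fold gap. The 153 lower genes with a 2-fold gap became 266 without A549 SP, 251 without A549 MP, 301 without H1650, 260 without H1975 and 573 without H460. The 360 higher genes became 582 without H1650 and 662 without H460, and the 1282 lower genes 1998 without H1650 and 2374 without H460. The other alternatives kept these counts within 1.5 times. For A549 minus the other lines, MTAP turned to -0.0889 with the SP arrays alone. Without 1 array or 1 line it ran from -0.50 to 0.96 for MTAP, from -0.25 to 1.60 for VIM, from -0.24 to 1.13 for EGFR and from -0.14 to 1.39 for ABCG2, the lowest value falling without H1975 for MTAP and ABCG2, without H1650 for VIM and without H460 for EGFR. None of these 4 genes was called. The cause of these changes was not tested. SP and MP mark the sorted population, and the labels do not say whether they came from separate cultures.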

Other observations

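Genes that stand next to each other in the RefSeq order of tested genes and were all called in the same direction are given here as values, since they were looked for after the calls were known. The longest run was 9 lower genes on chromosome 20 from TPD52L2 to PCMTD2, with a median difference of -0.56. On chromosome 19, 8 higher genes from SUPT5H to PSMC4 had a median of 1.09, and 8 from TGFB1 to CEACAM6 had a median of 1.38. On chromosome 17, 7 higher genes from HOXB7 to UBE2Z had a median of 1.4. On chromosome 3, CP, TM4SF18, TM4SF1, TM4SF4 and WWTR1 were higher with a median of 4.14, and on chromosome 7 PPP1R9A, PON3, PON2, ASB4 and PDK4 were higher with a median of 4.41. The cystatin genes CST3, CST4, CST1 and CST2 with GGTLC1 on chromosome 20 had a median of 1.98, and close relatives among them may share signal. Copy number was not measured.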
